A study of Mus musculus with 6 samples.

Results

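Snora1 and Trim25 were examined in 4 MARIO libraries by taking every read pair in which either fragment carried the name ENSMUSG00000064634_SNORA1 or Trim25. These are 2 of the 26158 annotated names in the libraries, and 27980 of 8319389 read pairs named at least 1 of them. In MARIO, RNAs that proteins hold together are joined through a linker, so that a read pair gives 1 fragment before the linker (RNA1) and 1 after it (RNA2). ES-1 and ES-2 are 2 assays on E14 mouse embryonic stem (ES) cells of strain 129/Ola after ultraviolet irradiation at 254 nm. ES indirect used the same cells treated with formaldehyde and EGS, by which proteins are crosslinked to each other too. The MEF library used embryonic fibroblasts of C57Bl/6 mice, irradiated at 254 nm like the first 2. RNase I first cut the RNA to about 1000 nt or somewhat longer in ES-1, to about 1000 nt in ES-2 and to about 300 nt in MEF, while ES indirect was sheared by sonication to about 1000 nt. For rRNA depletion, ES-1 and ES indirect were treated with a nuclease that digests double-stranded DNA, and the other 2 libraries with a depletion kit. Between MEF and ES-1, depletion, fragment size, strain and cell type cannot be told apart.

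Snora1 is a box H/ACA small nucleolar RNA (snoRNA). Such RNAs fold into hairpins followed by an ACA box close to their 3′ end, are bound by dyskerin, Nop10, Nhp2 and Gar1, and base-pair with other RNAs, most of them ribosomal, to direct the conversion of uridine to pseudouridine. Most are cut out of introns of a host gene. Trim25 is an E3 ubiquitin ligase of the tripartite motif family, best known for its part in signalling by the viral RNA sensor RIG-I, and it also binds RNA.

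On NCBIM37 (mm9), Snora1 is annotated at chr9:15119633-15119765 on the plus strand (133 nt), in an intron of Taf1d (chr9:15110658-15121441), which holds 8 snoRNAs in all. Trim25 lies at chr11:88860690-88881607 on the plus strand, with 9 exons in the transcript used here. Its 3′ UTR runs over 3572 nt of the last exon, chr11:88878036-88881607. The Trim25 fragments joined to Snora1 overlapped at chr11:88878854-88878878, bases 819 to 843 after the stop codon, and those 25 nt are called the site below.

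The letters of the fragments at the site are shown first, because the name Trim25 rests on them. The genome at the site, the most common Trim25-named fragment there, and the stretch held by fragments named for large subunit ribosomal RNA (LSU-rRNA_Hsa) were, 5′ to 3′, with the 15 letters that all share in capitals:
Trim25 genome, chr11:88878858-88878887, plus strand: catgttGACGGTGGCCATGGAgttagaggc
Trim25-named fragment: cagcagGACGGTGGCCATGGA
LSU-rRNA_Hsa-named fragments: cagcagGACGGTGGCCATGGAagtcggaat
The shared letters are at chr11:88878864-88878878. The most common Trim25-named fragment differed from the genome in 4 of its 21 letters, all of them before the capitals. Its 21 letters had 0 exact matches in the genome on either strand, and the 15 shared letters had 2. The LSU-rRNA_Hsa-named stretch was held whole by 14640 fragments of ES-1 and ES-2.

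For Snora1 both annotated ends are shown, because many fragments end or begin there, with the ACA box in capitals:
Snora1 5′ end, chr9:15119633-15119662, plus strand: agcctcattgtacataagaatgggcattgt
Snora1 3′ end, chr9:15119736-15119765, plus strand: acagtggtgacaatgagacctgtaACAttt
The ACA box begins at position 128 of Snora1 and is followed by 3 letters.

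ES-1 held 3230403 read pairs, ES-2 1312314, MEF 474526 and ES indirect 3302146. Between 48.3% and 81.0% of them had a ribosomal end, and 5.37% to 49.9% repeated the coordinates of an earlier line. Of 10 ES cell markers all were named in each library, with a summed level of 358 to 1281 read pairs per 1000000 in the ES libraries and 122 in MEF. Of 10 fibroblast markers 8 to 9 were named, with 230 to 350 per 1000000 in the ES libraries and 1237 in MEF, and Lum was at 0 in all 4 libraries, as was Dcn in MEF. The replicate check is between ES-1 and ES-2, which also differ in rRNA depletion and, by the study's methods, in how far RNase I cut the RNA. ES indirect and MEF are single libraries.

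Snora1 was named in 22706 read pairs of ES-1 and 3380 of ES-2, in 372 of MEF and in 66 of ES indirect. Per 1000000 read pairs this was 7029, 2576, 784 and 19.99, which is also the order of its levels. ES-1 and ES-2 themselves lay far apart, and with 1 library each for MEF and ES indirect the differences from ES had no test. Among snoRNAs, Snora1 ranked 14 of 718 in ES-1, 18 of 600 in ES-2, 38 of 476 in MEF and 88 of 446 in ES indirect. Trim25 was named in 591 read pairs of ES-2 (450 per 1000000), 648 of ES-1 (201), 251 of ES indirect (76.0) and 12 of MEF (25.3). This order was not that of Snora1, and it turned on the site described above. Fragments outside it numbered 421 in ES indirect (127 per 1000000 read pairs), 64 in ES-1 (19.8), 21 in ES-2 (16.0) and 2 in MEF (4.21), which puts ES indirect first. The amount of an RNA, its crosslinking and the share of its fragments that map cannot be told apart in these levels.

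Snora1 and Trim25 were joined in 24 read pairs of ES-1 and 22 of ES-2, and in 0 of MEF and 0 of ES indirect. The 46 read pairs of ES-1 and ES-2 merged had 34 distinct pairs of coordinates. From how often each RNA was joined to any other named RNA that is not ribosomal, 11.4 read pairs were expected. The pair was thus 4.02-fold over expectation (one-sided Fisher's exact test, adjusted p = 9.65e-13 over 227775 observed pairs). The expectation takes no account of the side of the linker on which an RNA lay. At an adjusted p under 0.05 and at least 3 read pairs, 6.34% of all observed pairs were called. By the same exact test the pair was also called in each library alone. ES-1 had 24 read pairs against 7.70 expected (exact test, adjusted p = 2.80e-05, with 10.5% of all pairs called). ES-2 had 22 against 2.56 (exact test, adjusted p = 3.49e-11, with 1.27% called). The test counts read pairs, so its p-values speak of these libraries only and hold no error between assays. The 0 in ES indirect was out of 66 Snora1 read pairs and allows a share of up to 4.55%, and the 0 in MEF was out of 372 and allows up to 0.806%. The shares of ES-1 (24 of 22706) and ES-2 (22 of 3380) lie below both limits, so neither 0 sets its library apart from ES.

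The call rested on fragments that differ from the genome. With read pairs kept only where both fragments matched the genome with at most 15% of letters differing, 2 Snora1–Trim25 read pairs were left (same exact test, adjusted p = 0.475). With read pairs left out where a fragment carried ribosomal letters, 0 were left. A fragment was said to carry ribosomal letters where at least 50% of its 15-letter words occurred in 10 or more distinct fragments named for ribosomal RNA in ES-1 and ES-2.

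Nearly all Trim25 fragments of the ultraviolet-crosslinked libraries fell on this 1 site. In ES-1, 614 of 649 Trim25 fragments (94.6%, 95% Wilson interval 92.6 to 96.1) lay in the 3′ UTR and 585 of the 649 at the site. In ES-2, 577 of 592 (97.5%, 95.9 to 98.5) lay in the 3′ UTR and 571 at the site. MEF had 10 of its 12 Trim25 fragments at the site. ES indirect was different. There 155 of 436 fragments (35.6%, 31.2 to 40.2) lay in the 3′ UTR, 175 in coding exons, 93 in introns and 15 at the site. The intervals cover counting error only.

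**Figure D1:**
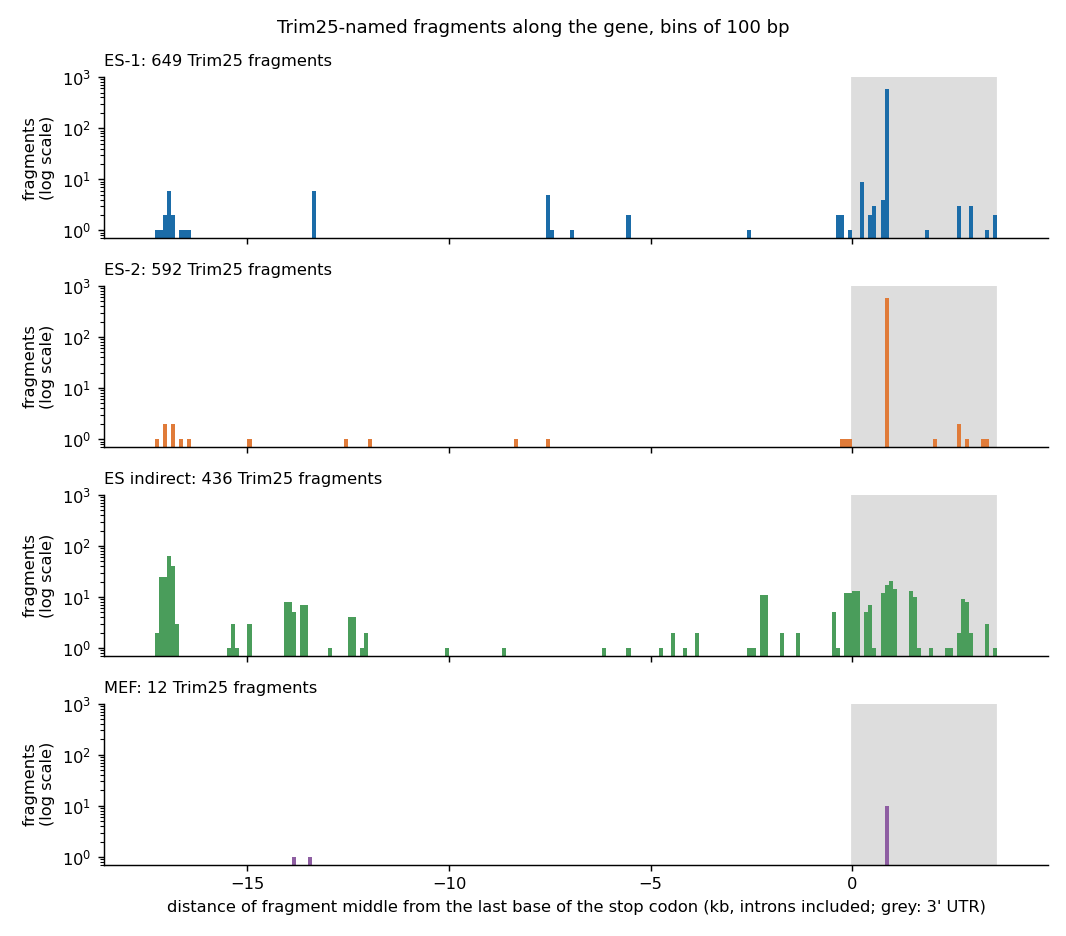
Fragments named Trim25 in bins of 100 bp along the gene, with the distance of the fragment's middle from the last base of the stop codon on the x axis (kb, introns included, grey for the 3′ UTR) and the number of fragments on the y axis (log scale), 1 panel per library. In ES-1, ES-2 and MEF a single bin about 0.8 kb into the 3′ UTR holds most fragments, while the 436 fragments of ES indirect are spread over the gene.

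Outside the site the letters of Trim25 fragments were those of Trim25 in the 3 ES libraries. Of the fragments outside it, 98.4% of 64 in ES-1, 95.2% of 21 in ES-2 and 99.3% of 421 in ES indirect matched the genome, and 1 of 2 in MEF. At the site, 6.32% of the 585 fragments in ES-1 and 7.71% of the 571 in ES-2 did. Of the 1156 site fragments of both libraries, 1 matched every letter, 125 had 1 to 3 differing letters and 1030 had 4 to 6 (median 4). They were 16 to 27 nt long (median 21 nt), 1146 held the 15 shared letters, and 1148 ended at the last of them. Ribosomal letters were found in 1150 of the 1156 fragments at the site (99.5%) and in 0 of the 85 outside it, which allows a share of up to 3.53%. In ES indirect, 8 of the 15 site fragments ended at the last shared letter, and 7 of the 15 matched the genome.

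The 15 letters were common under other names. In ES-1 and ES-2 together 25297 fragments held them in the sense of the RNA, of which 20583 carried a ribosomal name, 1146 the name Trim25, 3141 one of 212 other names and 427 no name. The other names were led by A430010J10Rik (463 fragments), St8sia1 (343), Ap1ar (266) and Pcif1 (221). What stood before the letters was the same in most fragments under each kind of name. Where a fragment had 6 or more letters before them, the 6 were those printed above in 820 of 829 Trim25-named fragments (98.9%), in 19073 of 19331 with a ribosomal name (98.7%) and in 1897 of 2007 with another name (94.5%). With no name they were so in 188 of 213 (88.3%).

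What stood after the letters differed by name. Of the Trim25-named fragments, 1143 of 1146 (99.7%) ended at the last shared letter, as did 1234 of 20583 with a ribosomal name (5.995%). Of those with a ribosomal name, 16720 of 20583 continued for more than 4 letters, and where 8 or more followed they were those printed above in 16215 of 16366 (99.1%). Of the 2871 fragments in which a C alone followed, 1797 carried another name, 925 a ribosomal name and 0 the name Trim25. The linker begins with C, and only RNA1 fragments have their 3′ end next to it. All 1146 Trim25-named fragments were RNA2, as were 16923 of 20583 with a ribosomal name and 676 of 3141 with another name. The part of this side in the difference by name was not tested. Fragments with a ribosomal name were longer, with a median of 60 nt against 21 nt for Trim25 and 23 nt for other names. None of the Trim25-named and none of the ribosomal-named fragments with the 15 letters matched the genome in every letter at its stated position, with 0 of 1146 and 0 of 20583. In ES indirect the letters occurred in 8 Trim25-named and 6794 ribosomal-named fragments, and in MEF in 10 and 295.

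**Figure D2:**
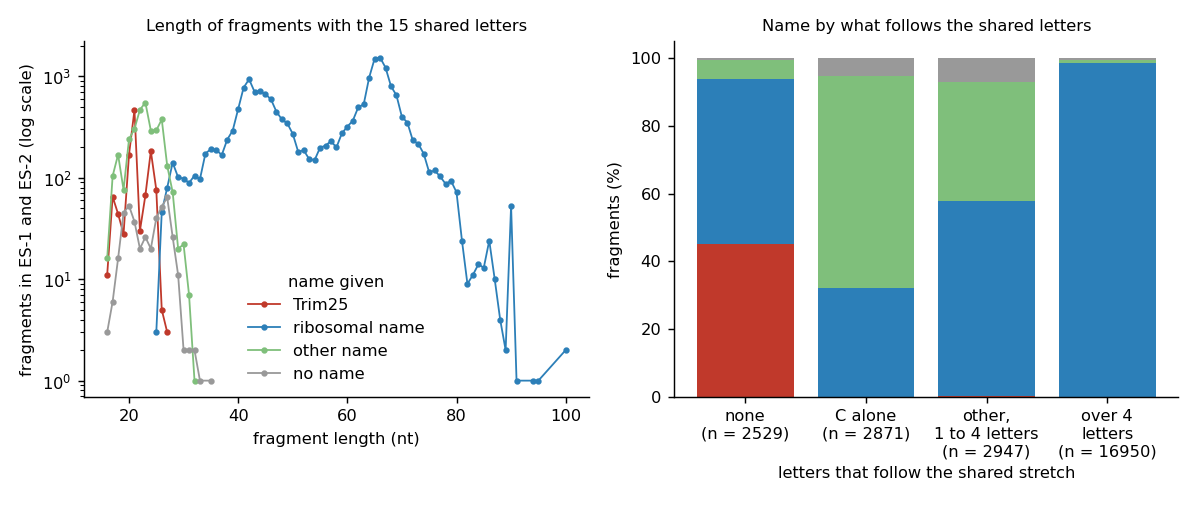
Fragments of ES-1 and ES-2 that hold the 15 letters shared by the Trim25 site and LSU-rRNA_Hsa, by the name the fragment carries (colours as in the key of the left panel). Left, the number of fragments (log scale) against fragment length in nt. Right, the percentage of fragments with each name by what follows the letters, with the number of fragments under each bar. Trim25 names stand at 16 to 27 nt and nearly all in the bar with no letter after the shared stretch. All Trim25-named fragments drawn were RNA2.

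Other snoRNAs were joined to fragments placed at the same Trim25 site. In ES-1 and ES-2 together 111 snoRNAs were joined to it in 525 read pairs, 54 of them in 3 or more read pairs and 39 in 1. With both fragments matching the genome, 14 snoRNAs in 28 read pairs were left. Of the 111, 70 have SNORA names (box H/ACA) and 34 have SNORD names (box C/D, the class that guides methylation). ES-1 had 85 of them and ES-2 had 69, and 43 were in both (50.6% and 62.3%). Of the 85, 33 rested on 1 read pair in ES-1, and of the 69, 40 rested on 1 in ES-2. ES indirect and MEF had 1 snoRNA each at the site, Snora81 and Snora73a.

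Snora1 led the list with 46 read pairs but shared the lead in ES-1. In ES-1, Snora1, Snora33 and Snora81 (ENSMUSG00000087935) had 24 read pairs each, followed by SNORA51 (ENSMUSG00000065287) with 14, SNORA42 (ENSMUSG00000064841) with 13 and Snora16a with 11. In ES-2, Snora1 had 22, SNORA51 (ENSMUSG00000065716) 13, Snora33 10, and SNORA29 and SNORA81 (ENSMUSG00000088895) 9 each. Further down, SNORA3 had 14 read pairs over both libraries, SNORA48 12, Snora73b, SNORA74 (ENSMUSG00000077611) and Snord13 11 each, and Snora44, SNORA4 and Snora15 10 each. SNORA42 had 13 of its 14 read pairs in ES-1, from 4 distinct pairs of coordinates there. SNORA51 (ENSMUSG00000065287) had 14 in ES-1, also from 4.

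Most snoRNAs at the site were also joined to ribosomal-named fragments with the 15 letters. This held for 107 of the 111 (96.4%) over both libraries, for 82 of 85 (96.5%) within ES-1 and for 49 of 69 (71.0%) within ES-2. The 107 are 36.0% of the 297 snoRNAs joined to such fragments, and the 297 are 33.2% of the 895 snoRNAs named in ES-1 or ES-2. As RNA2, Trim25-named fragments with the letters had a snoRNA as RNA1 in 337 of 585 read pairs in ES-1 (57.6%) and 186 of 561 in ES-2 (33.2%). For ribosomal-named fragments this was 6124 of 15626 (39.2%) and 289 of 1297 (22.3%). Of the snoRNA partners in ES-1, Snora1 made up 24 of 337 for Trim25-named fragments (7.12%, 4.83 to 10.4) and 262 of 6124 for ribosomal-named ones (4.28%, 3.799 to 4.81). In ES-2 it made up 22 of 186 (11.8%, 7.94 to 17.3) and 13 of 289 (4.50%, 2.65 to 7.54). These intervals did not overlap in either library, narrowly in ES-1. With repeated lines counted as 1, the shares were 7.25% (4.44 to 11.6) and 3.60% (3.03 to 4.28) in ES-1, and 11.2% (7.27 to 16.8) and 4.84% (2.79 to 8.27) in ES-2, where the intervals then overlapped. Snora1 was compared because it leads at the site, so its share under the name Trim25 was chosen to be high, and the fragments under that name were also the shorter ones. The part of fragment length in this difference was not tested.

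**Figure D3:**
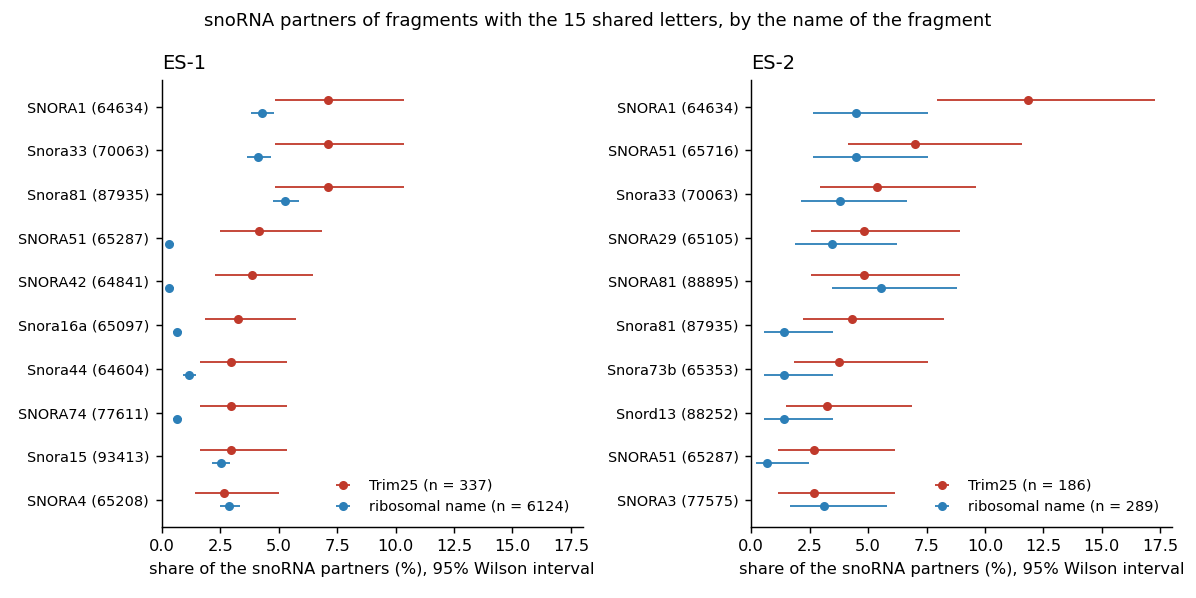
Share of each snoRNA among the snoRNA partners (x axis, %, with 95% Wilson intervals) of RNA2 fragments that hold the 15 shared letters and carry the name Trim25 (red) or a ribosomal name (blue), in ES-1 (left) and ES-2 (right). The 10 snoRNAs with most read pairs to the Trim25 site in that library are shown, with the last 5 digits of the gene identifier, so the red points were chosen to be high. Snora1 stands at 7.12% against 4.28% in ES-1 and at 11.8% against 4.50% in ES-2.

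Among all ribosomal fragments, those with the 15 letters were more frequent for Snora1 than for most snoRNAs. With a snoRNA as RNA1 and a ribosomal-named RNA2, the letters were in 262 of 11983 read pairs of Snora1 in ES-1 (2.19%, 1.94 to 2.46) and in 0.771% of those of all other snoRNAs. In ES-2 they were in 13 of 1527 (0.851%, 0.498 to 1.45) and in 0.227%. Over the snoRNAs with at least 1000 such read pairs, Snora1 ranked 3 of 132 in ES-1 (median 0.655%, highest 3.47% for SNORD36) and 1 of 31 in ES-2 (median 0.138%, next 0.572% for SNORA4). The letters came from a site defined by fragments joined to Snora1, so its rank is not independent of how they were chosen. Counting every name, Snora1 was joined to a fragment with the letters under the name Trim25 24 times, under a ribosomal name 286 times and under another name 31 times in ES-1. In ES-2 these numbers were 22, 14 and 13.

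The stretches joined in the 46 Snora1–Trim25 read pairs could pair over part of the shared letters. The duplex of lowest free energy, computed with RNAduplex on the letters of the fragments, had a median of -14.9 kcal/mol (range -22.1 to -9.6) and 12 paired bases (10 to 17), of which 8 to 11 lay in the shared letters. In ES-1 the median was -20.4 kcal/mol and in ES-2 -14.5 kcal/mol, with Snora1 stretches of 116 nt and 52 nt at the median. The paired part of Snora1 began at a median position of 31 in ES-1 (20 to 107) and of 107 in ES-2 (31 to 107). Each Snora1 stretch was also paired with every window of the same length as its Trim25 fragment along the 5590 nt of the Trim25 transcript. A median of 3.84% of windows had an energy as low or lower (0.251% to 23.3%), and for 37 of the 46 read pairs this was under 10%. With the genome letters of the site in place of the fragment's letters, the median energy was -14.3 kcal/mol and a median of 13.6% of windows were as low. The windows hold genome letters, so only this last share ranks the site itself within the transcript. These are descriptions of the letters, and read pairs that share a Snora1 stretch are not independent (33 stretches were distinct).

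Fragments of Snora1 carried its own letters. Ribosomal letters were in 0 of the 27374 Snora1 fragments of ES-1 and ES-2, which allows a share of up to 0.0110%, and between 99.6% and 100% of the RNA1 fragments named Snora1 matched the genome in every library. In ES-1 and ES-2 most RNA1 fragments ended at or just after the annotated end. Of RNA1 fragments, whose 3′ end is next to the linker, 60.4% in ES-1 and 86.4% in ES-2 ended at positions 133 to 139, counted from the first base of Snora1 and with the linker's first letter still on most fragments. In ES indirect 33.3% of 48 did, and in MEF 9.70% did. In MEF 45.6% ended at positions 77 to 83, where 3.60% of ES-1, 2.08% of ES-2 and 8.33% of ES indirect ended. Of RNA2 fragments, whose 5′ end is next to the linker, 49.2% in ES-1, 56.2% in ES-2, 46.0% in MEF and 46.4% in ES indirect began between position -2 and position 1. The 5′ ends thus lay within a narrow range of shares in the 4 libraries and the 3′ ends did not. MEF had the shorter first fragmentation, while ES indirect, also lower at the 3′ end than ES-1 and ES-2, was sheared to about 1000 nt. The part of fragmentation in this was not tested.

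**Figure D4:**
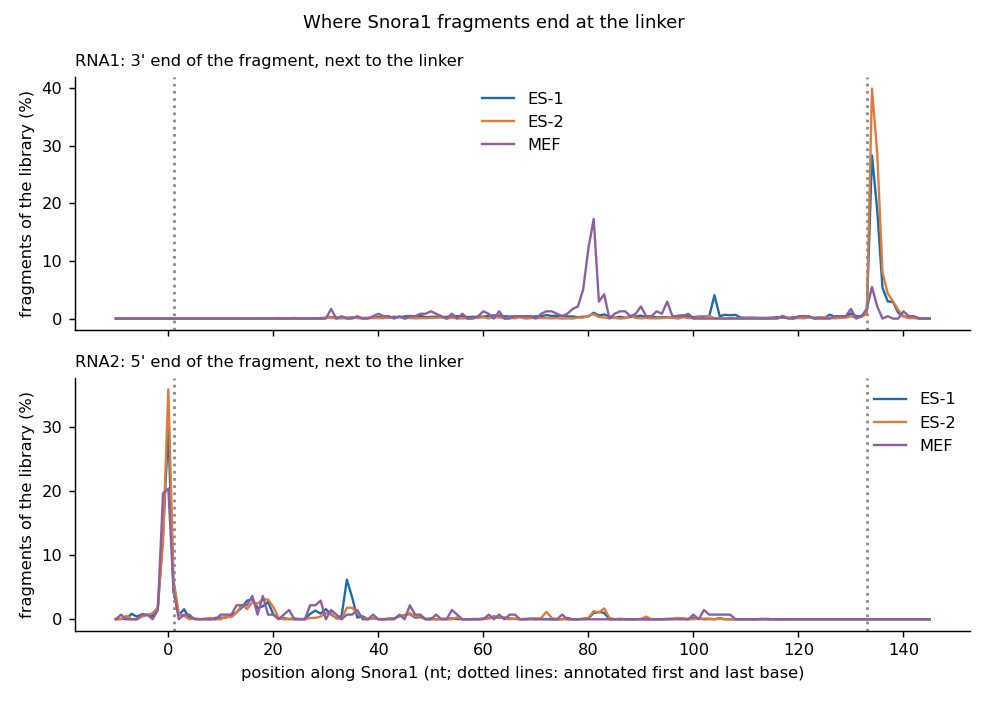
Position along Snora1 (x axis, nt, dotted lines at the annotated first and last base) at which fragments end next to the linker, as a percentage of the fragments of the library (y axis). Above, 3′ ends of RNA1, with the linker's first letter not removed, which gather at or just after the last annotated base in ES-1 and ES-2 and near position 80 in MEF. Below, 5′ ends of RNA2, which gather at positions -1 and 0, just before the first annotated base, in all 3 libraries drawn.

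Some Snora1 3′ ends carried A letters that the genome does not hold. The genome continues after the last annotated base of Snora1 as
genome after Snora1, chr9:15119766-15119777, plus strand: gtctgttacact
Most RNA1 fragments of Snora1 that reached the annotated end had a final C, the first letter of the linker, which was removed (10229 of 11021 in ES-1, 2104 of 2207 in ES-2). Nothing was then left beyond the annotated end in 48.5% of ES-1 and 46.9% of ES-2, and the single G of the genome in 31.3% and 33.6%. In 1418 fragments of ES-1 (13.9%, 13.2 to 14.5) and 278 of ES-2 (13.2%, 11.8 to 14.7), A letters and no other letter followed the last letter found in the genome. A single A was added in 567 and 115 of them, 2 in 491 and 93, 3 in 289 and 57, and more in 71 and 13. Other added letters were found in 216 and 41. With repeated lines counted as 1 the shares with A letters were 14.05% and 13.2%. ES indirect had 5 of 11, and MEF had 0 of 19, which allows up to 15.8%. Short tails of adenosine are known on snoRNAs as a step of 3′ end processing. Whether those here were made in the cell or added later was not tested.

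Ribosomal RNA was the main partner of Snora1. In ES-1, a ribosomal name stood on the other fragment in 13250 of 22706 read pairs (58.4%, 57.7 to 59.0), and in ES-2 in 1689 of 3380 (49.97%, 48.3 to 51.7). MEF had 154 of 372 (41.4%, 36.5 to 46.5), and ES indirect had 28 of 66 (42.4%, 31.2 to 54.4). For read pairs that named any other snoRNA, the share with a ribosomal partner was 65.3% in ES-1 and 58.9% in ES-2, above that of Snora1, and 30.2% in MEF and 26.6% in ES indirect, below it. In ES-1 and ES-2 together LSU-rRNA_Hsa made up 9590 of the ribosomal partners (64.2%) and SSU-rRNA_Hsa 5173 (34.6%). These names stand for repeat families, so the place along the ribosomal RNA was not analysed here. Other snoRNAs were the partner in 15.7% of ES-1, 10.6% of ES-2 and 14.2% of MEF, and protein-coding names in 10.4%, 16.1% and 20.7%. In ES indirect these shares were 6.06% and 24.2% of its 66 read pairs.

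**Figure D5:**
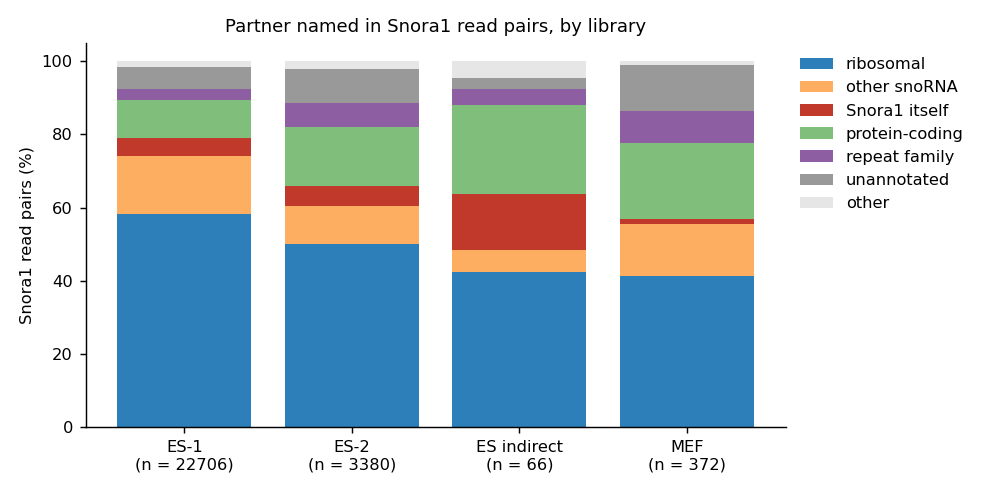
Share of Snora1 read pairs (y axis, %) by the kind of partner named, in the 4 libraries, with the number of read pairs under each bar. Ribosomal names make up 58.4% of the first bar (ES-1) and 41.4% of the last (MEF).

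Snora1 was joined to itself in 1105 read pairs of ES-1 (4.87%) and 183 of ES-2 (5.41%). Over all read pairs, joins within 1 RNA made up 4.36% of ES-1 and 1.47% of ES-2. MEF had 5 self joins of Snora1 and ES indirect had 10. Both fragments overlapped by at least 10 nt in 302 of those of ES-1 (27.3%) and 27 of ES-2 (14.8%). Where they overlapped less, RNA2 lay upstream of RNA1 in 770 of 803 (95.9%) and 150 of 156 (96.2%). The 3′ end of Snora1 was joined to its 5′ end, within the windows given above, in 496 (44.9%) and 89 (48.6%), and in 0 of the 5 of MEF and 3 of the 10 of ES indirect.

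Of the 1878 RNAs joined to Snora1 in between-RNA read pairs of ES-1 and ES-2 (ends in different RNAs, not ribosomal, more than 2000 bp apart), 175 were called, 9.32% against 6.34% of all observed pairs. Of the 175, 137 were protein-coding, 18 snoRNAs, 12 repeat families, 6 lincRNAs and 2 of other types. ES-1 alone called 184 of 1499 partners, where 10.5% of all observed pairs were called. ES-2 alone called 21 of 644, where 1.27% of all were called. In both libraries 10 were called, among them Trim25, Snora24, SNORA66 and 2 loci named SNORA32. How many pairs of all RNAs were called in both was not counted. Of the 175, 86 rested on 1 pair of coordinates and 33 were also called with repeated lines counted as 1. In that setting the calls over all observed pairs fell from 14452 to 2039.

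The called snoRNA partners of Snora1 carried letters that matched the genome. Snora24 had 219 read pairs (199 in ES-1, 20 in ES-2) from 104 distinct pairs of coordinates, against 139 expected (1.58-fold, adjusted p = 8.25e-09 by Fisher's exact test). SNORA32 (ENSMUSG00000065262) had 87 (75 and 12), 5.60-fold over expectation, SNORA66 had 92 (83 and 9), 2.00-fold, and Snord83b had 78 (72 and 6), 1.83-fold. SNORD38 had 36 (33 and 3), 2.37-fold. Snord83b and SNORD38 were not called with repeated lines counted as 1, nor in ES-2 alone, while the other 3 were called in both settings. In all, 6 loci with the name SNORA32 were called, with 144 read pairs and 4.95-fold to 7.33-fold over expectation. Copies of 1 snoRNA family can share reads, so how these 144 divide among the 6 loci is uncertain.

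Among the protein-coding and repeat names, many fragments carried the letters of another RNA. Of the 157 called partners that are not snoRNAs, the largest group of fragments held ribosomal letters for 20, letters of other snoRNAs for 11, letters of Snora1 itself for 6 and none of these for 120. Ties with none of these were counted under the ribosomal or snoRNA letters. Such ties were found for St8sia1 (5 ribosomal, 5 none), and for Hdgfrp3 and MYSERV-int (2 other snoRNA, 2 none, in each). Median fragment lengths of the 120 ran from 16 to 117 nt (median 52.0 nt), and those of the other groups from 16 to 58 nt, with medians of 19.0 to 23.5 nt. Of the 120, 45 had more than 1 pair of coordinates. Ptprg, a receptor phosphatase, had 61 read pairs (55 in ES-1, 6 in ES-2), 10.4-fold over expectation, and 60 of its fragments held letters of other snoRNAs. The first 15 letters of its most common fragment occurred in 1489 snoRNA-named fragments, 1488 of them named SNORD79. Lrrk1, a kinase gene, had 42 read pairs, 16.7-fold over expectation, and 36 held letters of Snora1. With the letters found in Snora1 in capitals, 20 of the 42 read
Lrrk1-named fragment: TGAGACCTGTAACATTTc
which is the printed 3′ end of Snora1 followed by the linker's C. The repeat families MT2A (28 read pairs) and MERVL_2A-int (24) held ribosomal letters in all 28 and letters of other snoRNAs in all 24, in that order. Fragments also matched the genome at the place named, with at most 15% of letters differing, in 28 of 28 fragments of MT2A, 24 of 24 of MERVL_2A-int, 36 of 42 of Lrrk1 and 32 of 61 of Ptprg. Over all 2893 protein-coding partner fragments of Snora1 in between-RNA read pairs, 24.8% held ribosomal letters, 6.50% letters of other snoRNAs, 2.52% letters of Snora1 and 66.2% none of these. In between-RNA read pairs as a whole, ribosomal letters were held by 26.0% of protein-coding RNA1 and 23.3% of protein-coding RNA2 fragments in ES-1, and by 35.3% and 28.6% in ES-2.

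Few names of the gene lists around both RNAs were joined to them. With the 8 names of the Taf1d locus (Taf1d and the other snoRNAs annotated within it) Snora1 had 0 between-RNA read pairs, a class that leaves out ends within 2000 bp of each other. Within 2000 bp it had 55 read pairs over the 4 libraries, with SNORA18 (30), SNORA8 (10), SNORA32 (ENSMUSG00000065265, 9), snoZ40 (5) and Taf1d (1). Of 6 genes of the H/ACA proteins and their assembly factors, 1 was joined to Snora1. This was Dkc1, which encodes dyskerin, with 8 read pairs against 0.525 expected (adjusted p = 2.20e-06 by Fisher's exact test), of which 7 repeated 1 pair of coordinates in ES-1 and 1 came from ES-2, and it was not called with repeated lines counted as 1 or in ES-2 alone. Of 63 Trim family names, 5 (7.94%) were joined to Snora1, against 8.03% of all 23380 names in ES-1 and ES-2, and none was called, with Trim44 at 4 read pairs, Trim37 at 2, and Trim28, Trim3 and Trim36 at 1 each. Of 10 genes of the RIG-I pathway, 9 were named in the libraries, and 0 were joined to Snora1 or to Trim25. Trim25 was joined to 0 of the 6 H/ACA genes and 0 other Trim names, and to SNORA18 of the Taf1d locus in 1 read pair. Of all 23380 names 1.14% were joined to Trim25, so a 0 in lists of this size says little.

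The partners of Trim25 were the partners of the site. Of 266 RNAs joined to Trim25 in 740 between-RNA read pairs of ES-1 and ES-2, 15 were called, 5.64% against 6.34% of all observed pairs. Of the 15, 13 were snoRNAs and the other 2 were Hist2h4 and Nsf, and every read pair of the 15 had its Trim25 fragment at the site. Snora33 had 34 read pairs (24 in ES-1, 10 in ES-2) against 19.4 expected, SNORA51 (ENSMUSG00000065716) 18 (5 and 13) against 0.616, SNORA51 (ENSMUSG00000065287) 19 (14 and 5) against 2.60, SNORA29 14 (5 and 9) against 3.06, and Snord13 11 (5 and 6) against 3.71. Among the others, SNORA42 had 14 read pairs (13 and 1), SNORA74 11 (10 and 1), Snord73a 5 (4 and 1) and Snord34 5, all of them in ES-1. ES-1 alone called 16 of 133 partners of Trim25, where 10.5% of all observed pairs were called. ES-2 alone called 5 of 184, where 1.27% of all were called. Snora1 and both SNORA51 loci were called in each. With repeated lines counted as 1, 7 of the 15 were called, and with both fragments matching the genome, 0 of the 15. Over all observed pairs, calls in these settings were 2039 of 227775 and 10273 of 124440, in that order.

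Self joins of Trim25 were found mainly in ES indirect. Of its 251 read pairs, 185 (73.7%) had both fragments in Trim25, against 1 in ES-1, 1 in ES-2 and 0 in MEF. With repeated lines counted as 1, these became 32 of 88 read pairs (36.4%), and the 436 Trim25 fragments of ES indirect became 120. Read pairs with both fragments in 1 RNA were frequent in ES indirect as a whole, at 31.0% of all read pairs and 21.5% with repeated lines counted as 1, against 1.33% to 4.36% of all read pairs in the other libraries. Outside the site, ES indirect had 31 ribosomal and 26 between-RNA partner read pairs, and ES-1 had 34 and 20.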

How the data were processed

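The 4 libraries are MARIO assays of mouse ES cells and embryonic fibroblasts. Per the labels and the methods of the study, the authors removed duplicates by mapped place and random barcode, sorted read pairs by sample barcode, located the linker, mapped both fragments to mm9 (NCBIM37) and deposited, per library, 1 line per read pair with position, strand, letters, type and name of each fragment and no measured value (TopHat2 2.1.1 is listed in the submitters' processing notes). Fragments without a unique place or a clear linker are therefore missing, and short fragments are the ones most open to a wrong place. Libraries were grouped by the labels. The 2 brain libraries were not used.

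Every count here is a count of deposited lines. Letters were turned to the sense of the RNA and set against the NCBIM37 genome and GENCODE vM1, a match allowing 15% differing letters. Lines fell into classes in this order: ribosomal, unannotated, same RNA, within 2000 bp, and between-RNA. Pairs of RNAs were tested over all observed between-RNA pairs of ES-1 and ES-2 merged, the study's own choice, by a one-sided Fisher's exact test with Benjamini-Hochberg adjustment, where a call needed 3 or more read pairs and an adjusted p below 0.05. On simulated partners, 200 of 200 planted pairs were recovered and 163 of 302459 others were called. The simulated read pairs were drawn independently, unlike repeated lines, and no planted RNA had as many ends as Snora1. These counts therefore do not measure false calls in the real libraries. Letters of ribosomal RNA or of snoRNAs were defined by 15-letter words found in at least 10 distinct fragments of 30 nt or more with such a name. Free energies came from RNAduplex and RNAcofold (ViennaRNA 2.7.2), and tests from scipy 1.17.1 in Python 3.11.15. Shares carry 95% Wilson intervals, and a count of 0 a limit of 3 counts, which cover counting error only because molecules amplified before sequencing are not independent. Depth was 474526 to 3302146 read pairs. The members, gene lists and alternatives were chosen with earlier results of these data known. The named partners are the 10 of each RNA with most distinct pairs of coordinates among called pairs, every snoRNA at the Trim25 site (those with most read pairs by name), and the lists of the Taf1d locus, H/ACA proteins, the RIG-I pathway and the Trim family; Nsf, Hist2h4 and the names that lead the fragments with the shared letters were named after their values were seen.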

Additional observations from a re-analysis of the deposited data

How the results depend on the processing

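Of 10 alternatives for the Snora1–Trim25 pair, 8 kept the call and 2 lost it, with 2 read pairs where both fragments had to match the genome and 0 without ribosomal letters. All 46 Trim25 fragments of the pair carried ribosomal letters, so leaving such fragments out could only give 0. The match to the genome left 61 of the 740 between-RNA read pairs of Trim25. Among the 8, the 2 that changed only the minimum of read pairs could not alter the call of a pair with 46. Called partners of Snora1 went from 175 to 34 with repeated lines counted as 1, to 109 with at least 5 read pairs, and ranged from 21 to 184 when ES-1 or ES-2 was left out. Over all observed pairs, calls went from 14452 to 2039 and to 5833, and ranged from 1386 to 14244, in the same settings. Called partners of Trim25 went from 15 of 266 to 7 of 266 with repeated lines counted as 1. They were 2 of 36 with matching fragments, 40 of 266 with no minimum of read pairs and 3 of 18 without ribosomal letters. When ES-1 or ES-2 was left out, they ranged from 5 of 184 to 16 of 133. Over all observed pairs, calls were 10273 of 124440 with matching fragments and 66224 of 227775 with no minimum. Without ribosomal letters they were 11935 of 155712. The lower counts of each range are those without ES-1. The cause was not tested. The ribosomal share of Snora1 in ES-1 was 63.3% with repeated lines counted as 1, 62.1% with matching fragments and 60.9% without short or linker-bearing ones, in ES-2 59.1% and 56.4% for the last 2 settings, and in MEF 55.0% and 59.0%. The 3′ UTR share of Trim25 with matching fragments was 66.0% in ES-1, 78.1% in ES-2 and 0% in MEF (1 fragment), 100% in MEF with sense fragments only, and 42.5% in ES indirect with repeated lines counted as 1. With matching fragments 14 snoRNAs were joined to the site, and 69 to 85 when ES-1 or ES-2 was left out. The median duplex energy was -25.2 kcal/mol with RNAcofold, which also counts pairing within each stretch, and -20.4 to -14.5 when ES-1 or ES-2 was left out. The alternatives on ribosomal letters, genome letters and left-out libraries for the site and the duplex, and repeated lines for the share of Snora1 among snoRNA partners, were added after the data were seen. No paired analysis was possible because the Fisher's test has no replicate term and ES indirect and MEF share only replicate number 1 with the ES group. ES indirect and MEF are 1 library each, and MEF held 12 Trim25 fragments, so differences between these and ES had no test.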
